A study of Homo sapiens with 4 samples.

Results

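The cytosolic ribosomal protein genes were chosen by symbol alone in RNA-seq data from the established human glioma line U87: every row named RPL or RPS followed by a number, with or without a final A, X or L, plus RPLP0, RPLP1, RPLP2 and RPSA. This gave 83 of the 57820 gene rows, 49 for the large ribosomal subunit and 34 for the small one. In the shGlud1 cells, a Glud1 knock-down, a hairpin RNA targeted GLUD1, the gene of the mitochondrial enzyme glutamate dehydrogenase. They were compared with shNT cells, which held a control hairpin. Both groups were kept in DMEM with 10% bovine calf serum and then in low glucose for 6 h, so the data hold no cells in full glucose. There were 2 libraries of polyA RNA in each group. Neither separate cultures nor the number of hairpin sequences or clones is given in the labels, so p-values reflect the spread of these 4 libraries alone, and that spread may be technical.

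Ribosomal proteins and ribosomal RNA form the machine that translates mRNA. The small subunit reads the codons, and the large subunit joins the amino acids and leads the new chain out through a tunnel. Cells need the proteins in equal numbers, with the acidic stalk proteins RPLP1 and RPLP2 as exceptions that are present in more than a single copy, and their mRNAs are among the most abundant in growing cells. Most of these mRNAs begin with a C followed by a run of pyrimidines, the terminal oligopyrimidine (TOP) motif. Through this motif their translation and stability respond to the nutrient-sensing kinase mTORC1 and to the RNA-binding protein LARP1. The data here are RNA levels, not translation.

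Start sites from RefSeq (GRCh38.p14) could be matched by symbol to 64 of the 83 genes. Some genes have several listed starts. For each gene the start with the longest TOP run was taken, or the first listed where none had a run. The 11 sequences that follow hold 15 bases before and 20 bases from the annotated start onward, 5′ to 3′ on the gene's own strand, with any TOP run at the start in capitals. They were chosen to set genes with large falls (RPS27, RPS29, RPL36A, RPL34, RPS3A) and the abundant stalk gene RPLP0 beside those with the smallest changes (RPL14, RPS4X, RPL6, RPL4, RPS6).
RPS27, chr1:153990747-153990781, plus strand: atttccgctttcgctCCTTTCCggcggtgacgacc
RPS29, chr14:49598691-49598725, minus strand: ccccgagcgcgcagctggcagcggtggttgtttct
RPL36A, chrX:101390996-101391030, plus strand: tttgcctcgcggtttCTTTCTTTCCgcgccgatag
RPL34, chr4:108620561-108620595, plus strand: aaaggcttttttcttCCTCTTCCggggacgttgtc
RPS3A, chr4:151099613-151099647, plus strand: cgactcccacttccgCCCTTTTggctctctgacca
RPLP0, chr12:120201092-120201126, minus strand: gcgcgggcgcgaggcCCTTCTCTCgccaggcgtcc
RPS6, chr9:19380217-19380251, minus strand: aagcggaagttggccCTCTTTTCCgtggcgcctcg
RPL4, chr15:66504836-66504870, minus strand: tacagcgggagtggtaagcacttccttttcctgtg
RPL6, chr12:112411423-112411457, minus strand: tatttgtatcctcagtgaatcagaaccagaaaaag
RPS4X, chrX:72277229-72277263, minus strand: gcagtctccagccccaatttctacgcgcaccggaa
RPL14, chr3:40457324-40457358, plus strand: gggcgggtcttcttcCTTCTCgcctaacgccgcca
Both kinds of start occur among the large falls and among the small changes: RPS29 has no run at any listed start, and RPL14 and RPS6 have one. The RPL4 start shown is followed by a pyrimidine run some bases downstream, and the starts used in these cells were not measured.

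Total expected counts were 17407149 and 18537314 for shGlud1 and 16546849 and 18118503 for shNT. GLUD1 itself was at 34.0 and 44.5 CPM (counts divided by library size, adjusted with TMM factors) in the shGlud1 libraries and at 78.1 and 76.5 CPM in the shNT libraries, which is -0.98 on the log2 scale (SE 0.13, edgeR quasi-likelihood adjusted p = 1.26e-12). Of 8 glioma and glial markers, VIM and CD44 were abundant, SOX2 was at 0 in every library, and S100B, GFAP and OLIG2 did not exceed 0.345 CPM by total counts. The markers summed to 5990 and 7130 CPM in the shGlud1 libraries and to 2610 and 2550 CPM in the shNT libraries, and their part in the ribosomal protein result was not tested. VIM made up most of each sum, at 5100 and 6110 CPM in shGlud1 and at 2000 and 1930 CPM in shNT cells. CD44 and NES (34.2 and 35.4 against 6.65 and 6.07 CPM) were also higher in shGlud1, and FABP7 was lower (1.84 and 1.83 against 2.18 and 2.54 CPM). Marker sums for blood, epithelium and endothelium (CDH5 alone) did not exceed 0.604 CPM in any library, and the neuronal pair summed to 6.66 and 7.55 CPM in the shGlud1 libraries and to 3.69 and 3.42 CPM in the shNT libraries. TMM factors were 1.15 and 1.24 for shGlud1 and 0.826 and 0.845 for shNT, so the choice of scaling moves every fold change by a similar amount. The median log2 fold change of all 14616 genes tested was 0.06 with TMM factors and 0.57 with total counts.

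Ribosomal protein mRNAs took a smaller part of the RNA when GLUD1 was knocked down. The 83 genes held 10.8% and 9.28% of all counts in the shGlud1 libraries, against 17.1% and 17.5% in the shNT libraries, a difference of -7.24 percentage points that exceeded the spread within either pair. Large subunit genes held 5.99% ± 0.56 in shGlud1 and 10.1% ± 0.08 in shNT cells, and small subunit genes held 4.06% ± 0.53 in shGlud1 and 7.23% ± 0.15 in shNT cells (SD, n = 2 each). Both shares were lower in each shGlud1 library than in either shNT library. These shares need no scaling factor, and with 2 libraries against 2 an exact permutation test cannot reach 0.05, so none is given. In bulk RNA, fewer cells with high ribosomal protein mRNA and less of this mRNA per cell cannot be told apart. A share is also relative to all other counts, so a rise of other mRNA would lower it too. Amounts per cell were not measured.

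**Figure D1:**
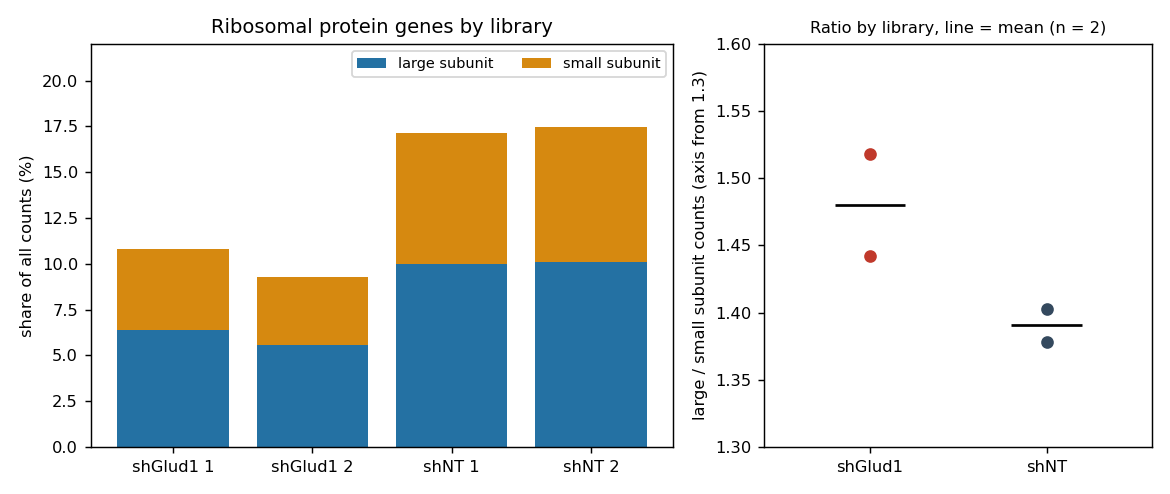
Left, percent of all expected counts held by large and small subunit genes, stacked, in each of the 4 libraries; right, the ratio of large to small subunit counts by library, with a line at each group's mean and an axis that does not start at 0. The shGlud1 libraries stand at 10.8% and 9.28% in total, below both shNT libraries at 17.1% and 17.5%, and their ratios are 1.44 and 1.52, against 1.40 and 1.38 for shNT.

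The lower share was spread over nearly the whole family. Of the 80 genes tested, 78 were lower in shGlud1 cells, RPL14 was higher and RPS4X was not called (edgeR's quasi-likelihood test, adjusted p under 0.05 over all genes tested). Among all genes tested 29.1% were called lower and 31.9% higher. The median log2 fold change of the 80 genes was -1.26, with quartiles at -1.48 and -1.07 and a range from -1.92 to 0.34. A fall of at least 1 on the log2 scale was called for 63 of the 80, against 12.8% of all genes. The 3 genes that were not tested were at or near 0 counts in all libraries, and every tested gene had at least 1224 counts in every library, so the filter on low counts did not shape this list.

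How far the family fell depended on the scaling. With library sizes by total counts alone, 68 of the 80 were called lower and 2 higher (RPL14 and RPS4X), against 13.7% lower and 51.9% higher among all genes, and the median was -0.75. The family's median minus that of all genes was -1.32 in both of these scalings. A change of scaling moves every fold change by a similar amount, so this equality is no separate check. With each library's trend of counts on longest annotated transcript length removed, 67 of 79 were called lower and 0 higher, against 28.6% and 27.3% of all genes, at a median of -0.91. With the median transcript in place of the longest, a choice made after seeing the data, 77 were lower and 1 higher, against 29.6% and 29.3% of all genes, at a median of -1.22. Under TMM scaling both shGlud1 libraries lay below both shNT libraries for 79 of the 80 genes, against 38.2% of all genes, and under total counts for 71, against 20.7%.

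**Figure D2:**
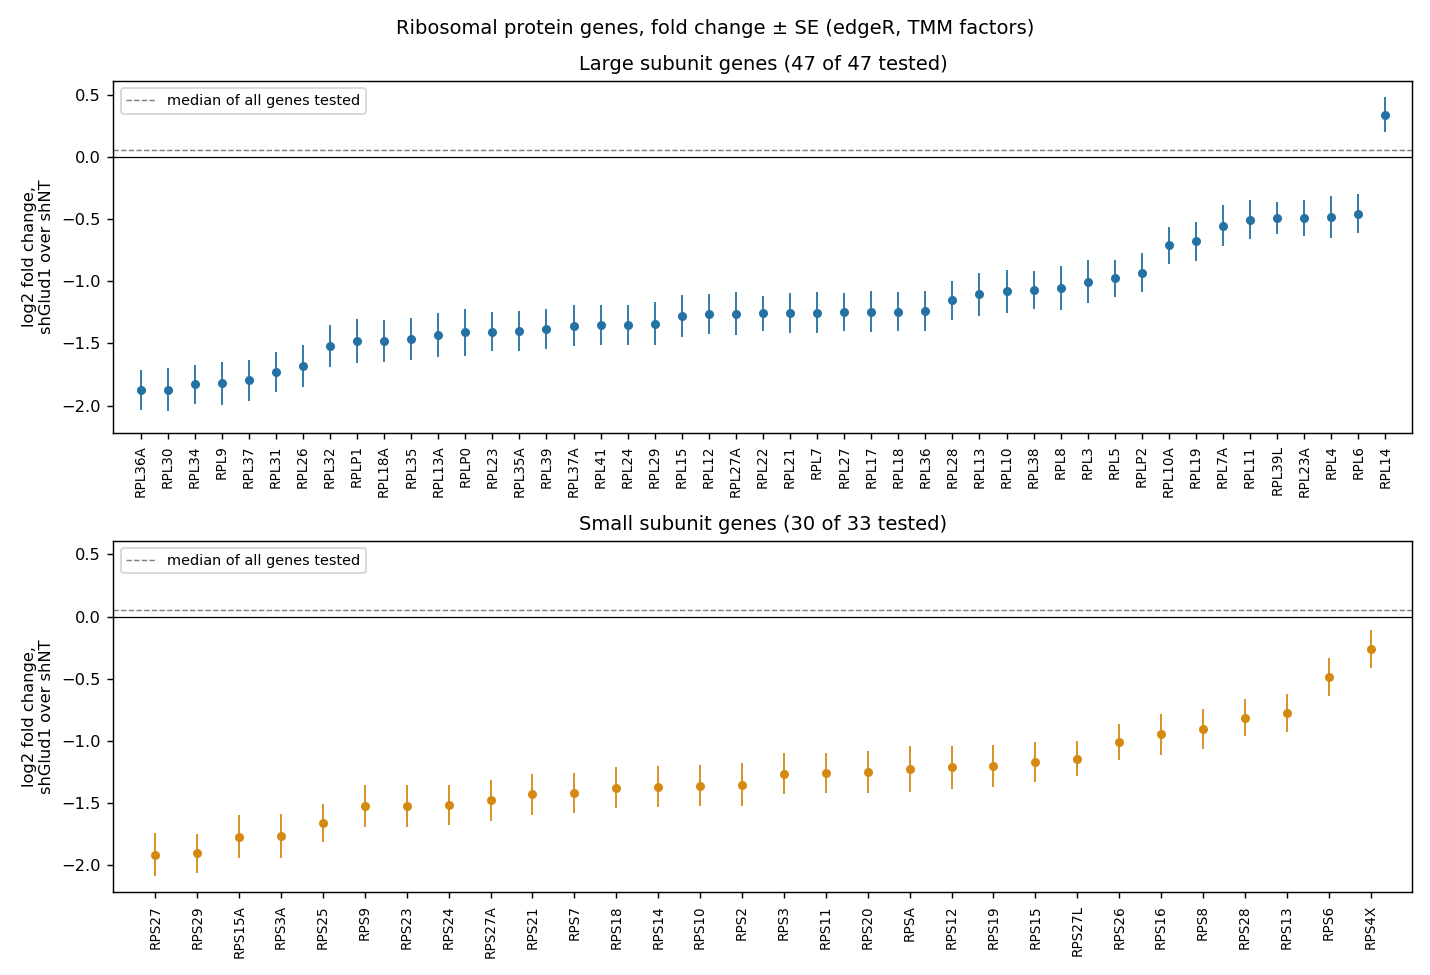
Log2 fold change (shGlud1 over shNT, TMM factors) of tested ribosomal protein genes with their standard errors, 47 large subunit genes above and 30 of the 33 small subunit genes below, and the median of all genes tested as a dashed line. All shown but RPL14 (0.34) lie below 0, and the lowest is RPS27 at -1.92.

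**Figure D3:**
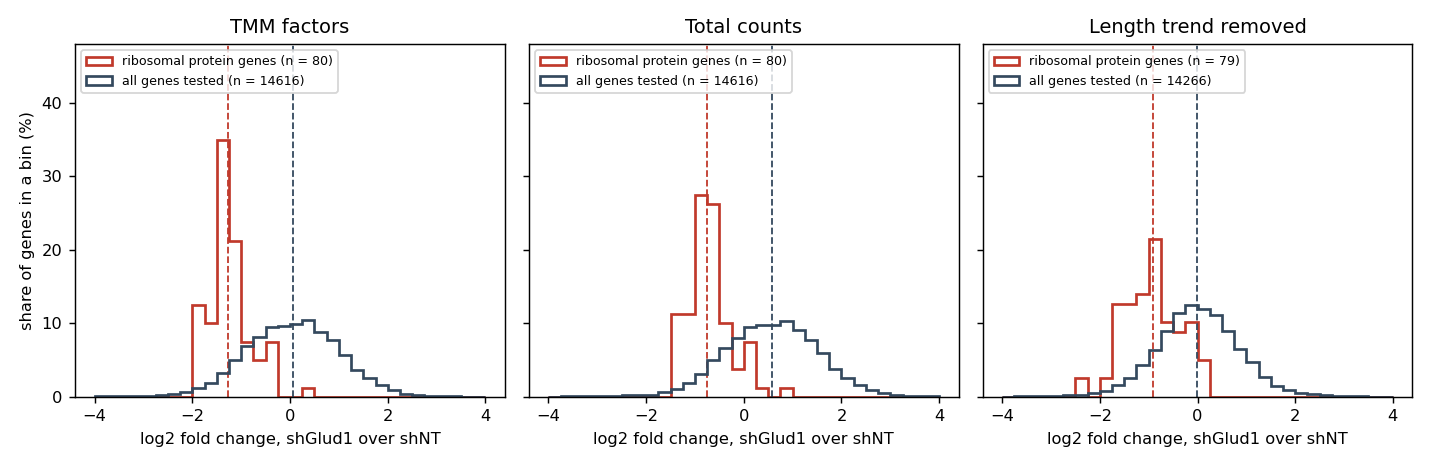
Share of genes (%) in each bin of log2 fold change (shGlud1 over shNT) for the ribosomal protein genes and for all genes tested, under TMM factors, total counts and removal of the transcript length trend, with dashed lines at the medians. The family's median is -1.26, -0.75 and -0.91 in these 3 settings, left of that of all genes in each.

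The libraries of the shGlud1 pair differed from each other in this family. In shGlud1 replicate 2, 79 of the 80 genes were lower than in replicate 1, with a median log2 ratio of -0.35 between the libraries. In the shNT pair 32 of 80 were lower in replicate 2, at a median of 0.03. The distance between the groups was larger than the distance within the shGlud1 pair, and leaving out shGlud1 replicate 1 or 2 gave a family median of -1.49 or -1.13. The share of counts from the mitochondrial genome, which also differed between the groups, was 1.95% and 1.52% in the shGlud1 libraries and 1.00% and 1.12% in the shNT libraries. With these counts left out of the totals, the difference in the ribosomal protein share was -7.25 points.

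Both subunits were lower by a similar amount. Of 47 large subunit genes tested, 46 fell and RPL14 rose, the median log2 fold change being -1.26 and 36 falls of at least 1. Among 33 small subunit genes 32 fell and RPS4X was not called, with a median of -1.36 and 27 falls of at least 1. Of all genes tested 29.1% were called lower, and 12.8% were called lower by at least 1. Under total counts 38 large and 30 small subunit genes were called lower, against 13.7% of all genes. In that setting 1 gene of each subunit was called higher, against 51.9% of all genes. Counts of large subunit genes were 1.44 and 1.52 times those of small subunit genes in the shGlud1 libraries and 1.40 and 1.38 times in the shNT libraries. This ratio was higher in both shGlud1 libraries, but the gap between the means, 0.09, is close to the gap between the shGlud1 libraries themselves. The gap between the means was 0.05 without shGlud1 replicate 2 and 0.13 without shGlud1 replicate 1. With the length trend removed the medians were -0.91 for the large and -0.91 for the small subunit.

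RPS27, which encodes a zinc-binding protein of the small subunit, fell most (GRCh38 chromosome 1, 153990755 to 153992155). It was at 1196 and 850.4 CPM in the shGlud1 libraries and at 3752 and 3975 CPM in the shNT libraries, which gave -1.92 on the log2 scale (SE 0.17, edgeR quasi-likelihood adjusted p = 6.39e-27). The groups were far apart, although the shGlud1 libraries differed from each other more than the shNT libraries did. RPS29, another small zinc-binding protein gene, was at 384.7 and 262.5 CPM in shGlud1 and at 1206 and 1219 CPM in shNT cells (-1.91, SE 0.16, adjusted p = 6.36e-32, edgeR). RPS15A and RPS3A, both for small subunit proteins, fell by 1.77 each. RPS3A was at 1418 and 1258 CPM in the shGlud1 libraries, against 4630 and 4469 CPM in the shNT libraries.

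RPSA, which encodes a small subunit protein also described as a laminin receptor, had the second highest mean CPM after RPLP0 in both groups, although it exceeded RPLP0 in shGlud1 replicate 1. It stood at 5288 and 3855 CPM in shGlud1 and at 11070 and 10270 CPM in shNT cells (-1.22, SE 0.19, edgeR quasi-likelihood adjusted p = 2.47e-10). Its shGlud1 libraries differed by more than its shNT libraries, yet both lay below them. At the mRNA entry side of the small subunit, RPS2 (-1.35) and RPS3 (-1.26) both fell. Near the decoding centre RPS15 (-1.17), RPS23 (-1.53) and RPS27A (-1.48) fell. RPS27A is made as a fusion with ubiquitin that is later cut, so its mRNA also supplies ubiquitin. Its level was 1028 and 807.4 CPM in the shGlud1 libraries and 2441 and 2666 CPM in the shNT libraries. On the mRNA exit side RPS14 (-1.37), RPS26 (-1.01) and RPS28 (-0.81) fell, with RPS28 at 512.7 and 383.3 CPM in shGlud1 and at 795.1 and 780.2 CPM in shNT cells. RPS28 lost its call after removal of trends on both length and GC (-0.14, adjusted p = 0.219, edgeR).

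In the large subunit the lowest fold changes were those of RPL36A, RPL30, RPL34, RPL9 and RPL37. RPL36A, which encodes a zinc-binding protein, was at 471.3 and 378.4 CPM in the shGlud1 libraries and at 1500 and 1613 CPM in the shNT libraries (-1.87, SE 0.16, edgeR quasi-likelihood adjusted p = 9.96e-30). RPL30, whose yeast counterpart limits its own splicing, was at 1039 and 863.9 CPM in shGlud1 and at 3528 and 3442 CPM in shNT cells (-1.87). The shNT libraries of both genes stood at more than 3 times the level of their shGlud1 libraries. RPL34 (-1.83), RPL9 (-1.82) and the zinc-binding RPL37 (-1.80) followed, with RPL9 at 1530 and 1173 CPM in shGlud1 and at 4776 in both shNT libraries. Fold changes in this range are sensitive to the length used: with the longest-transcript trend removed RPL37 was at -2.38 and RPL30 at -1.28, and with the median-transcript trend removed at -1.68 and -1.80.

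The stalk of the large subunit recruits the elongation factors. RPLP0, its base, had the highest mean CPM of all members in shGlud1 and in shNT cells, at 5210 and 4277 CPM in the shGlud1 libraries and 13170 and 12050 CPM in the shNT libraries (-1.41, SE 0.19, edgeR quasi-likelihood adjusted p = 5.23e-13). RPLP1 was at 2346 and 1724 CPM in shGlud1 and at 5778 and 5588 CPM in shNT cells (-1.48), and RPL12, which lies at the stalk base, was at -1.26. RPLP2, the partner of RPLP1 in the stalk dimer, fell less: 766.5 and 626.2 CPM in the shGlud1 libraries against 1274 and 1384 CPM in the shNT libraries (-0.93, adjusted p = 1.37e-08). With the length trend removed RPLP2 was at -0.22 and no longer called (adjusted p = 0.129, edgeR). The difference between the fold changes of RPLP1 and RPLP2 was not tested.

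Around the peptidyl transferase centre the 3 genes listed moved closely together, RPL3 at -1.005, RPL8 at -1.05 and RPL10 at -1.08, although RPL8 lost its call after removal of trends on both length and GC (-0.13, adjusted p = 0.273, edgeR). RPL8 was at 3353 and 2696 CPM in the shGlud1 libraries and at 6641 and 5899 CPM in the shNT libraries, and RPL13, another abundant large subunit gene, was at 2693 and 2230 CPM in shGlud1 and at 5467 and 5118 CPM in shNT cells (-1.10). All 9 genes of a list for the exit tunnel and its opening fell, but over a wide range, with RPL31 (-1.73), RPL26 (-1.69), RPL35 (-1.47) and RPL39 (-1.39) at the low end and RPL19 (-0.68), RPL23A (-0.49) and RPL4 (-0.48) at the high end. RPL5 (-0.98) and RPL11 (-0.50) encode the pair of proteins that binds the small ribosomal RNA of the large subunit and, when unassembled, inhibits MDM2. Neither fell by 1 or more. RPL5 was at 342.6 and 335.7 CPM in the shGlud1 libraries and at 662.0 and 671.9 CPM in the shNT libraries, and RPL11 was at 1104 and 986.2 CPM in shGlud1 and at 1348 and 1617 CPM in shNT cells. Under total counts RPL11 was at 0.01 (adjusted p = 0.944, edgeR), and without shNT replicate 2 it was at -0.37 (adjusted p = 0.238), with no call in either. All 19 tested genes of a list of those mutated in Diamond-Blackfan anaemia, an inherited red cell aplasia, fell, with a median of -1.40, as did 78 of the 80 tested members and 29.1% of all genes. Under total counts 17 of the 19 were called lower, as were 68 of the 80 tested members and 13.7% of all genes.

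RPL14 was the exception. This large subunit gene (GRCh38 chromosome 3, 40457292 to 40468587) was at 413.9 and 388.6 CPM in the shGlud1 libraries and at 302.4 and 331.7 CPM in the shNT libraries, with no overlap between the groups. It was higher by 0.34 on the log2 scale (SE 0.14, edgeR quasi-likelihood adjusted p = 0.0298), and under total counts 0.86 (adjusted p = 2.48e-10). That call ended without shNT replicate 1 (0.27, adjusted p = 0.349), without shNT replicate 2 (0.41, adjusted p = 0.143) and when RLE factors were used (0.29, adjusted p = 0.0948), and with the length trend removed the sign turned (-0.23, adjusted p = 0.105). Per coding length it was the least abundant tested member in shNT cells, at 469 and 514 CPM per kb in the shNT libraries.

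RPS4X, an X-linked small subunit gene, was at 931.0 and 847.0 CPM in the shGlud1 libraries and at 979.1 and 1150 CPM in the shNT libraries (-0.26, SE 0.16, edgeR quasi-likelihood adjusted p = 0.134). The groups did not overlap but lay close together. DESeq2 called it lower (-0.31, adjusted p = 0.0281), as did edgeR without shGlud1 replicate 1 (-0.35, adjusted p = 0.00507), and under total counts it was called higher (0.26, adjusted p = 0.0448). The other X-linked members fell, RPL36A (-1.87), RPL39 (-1.39) and RPL10 (-1.08).

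Another set of genes was called lower but by little. RPS6, the small subunit protein that S6 kinase phosphorylates, was at 704.3 and 625.1 CPM in the shGlud1 libraries and at 862.2 and 1002 CPM in the shNT libraries (-0.49, SE 0.15, edgeR quasi-likelihood adjusted p = 0.00303). RPL4, a tunnel protein, was at 1728 and 1829 CPM in shGlud1 and at 2535 and 2439 CPM in shNT cells (-0.48), and RPL6 was at 833.6 and 808.2 CPM in shGlud1 and at 1091 and 1163 CPM in shNT cells (-0.46). RPL23A, at the tunnel opening, was at 474.6 and 345.5 CPM in the shGlud1 libraries and at 537.6 and 614.6 CPM in the shNT libraries (-0.49). Under total counts these genes lay between 0.02 and 0.06 and none of the 4 was called. Without shNT replicate 2 all 4 lost their call (adjusted p from 0.113 for RPL4 to 0.2 for RPS6, edgeR), and without shNT replicate 1 so did RPL4 (adjusted p = 0.173) and RPL6 (adjusted p = 0.0935). RPS13 fell by 0.78 and was at -0.07 with the length trend removed (adjusted p = 0.668).

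**Figure D4:**
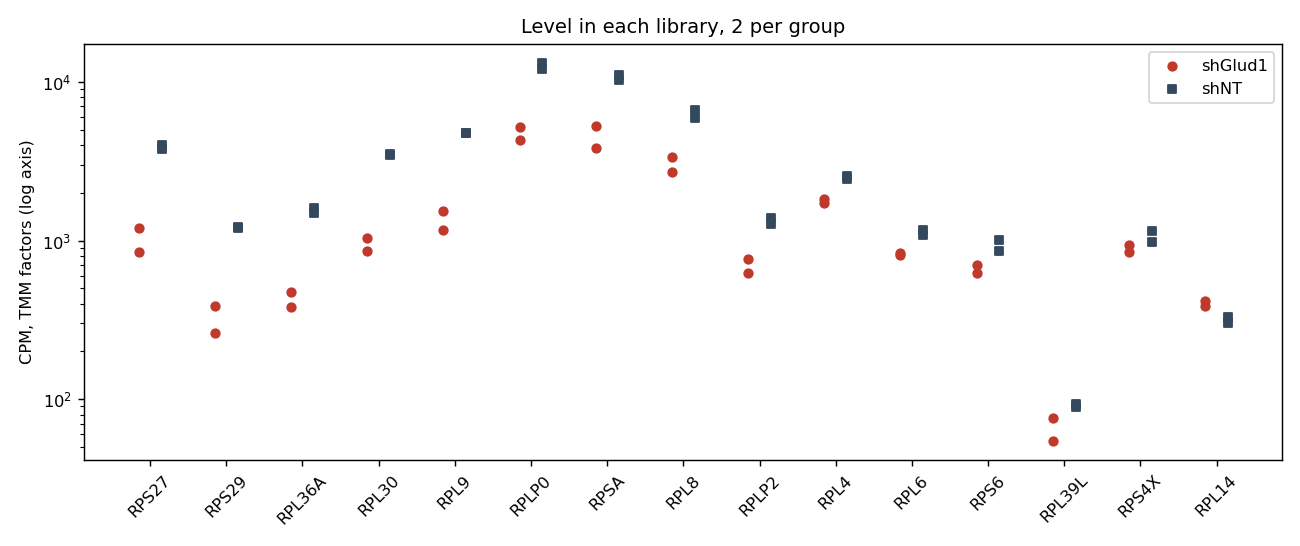
TMM-scaled CPM on a log axis in each shGlud1 (circles) and shNT (squares) library for 15 ribosomal protein genes, large falls, abundant genes and small changes side by side. The groups do not overlap for any gene shown, and RPL14, at 413.9 and 388.6 CPM in shGlud1 and at 302.4 and 331.7 CPM in shNT cells, is the only one of the 15 higher in shGlud1.

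Members whose names end in L are close copies of another member. RPL39L, known from testis and some tumours, was at 76.01 and 54.42 CPM in the shGlud1 libraries and at 89.66 and 93.71 CPM in the shNT libraries (-0.49, edgeR quasi-likelihood adjusted p = 0.000373), while its parent RPL39 was at 860.2 and 634.1 CPM in shGlud1 and at 1812 and 2097 CPM in shNT cells (-1.39). RPL39L was not called under total counts (0.02) and lost its call without shGlud1 replicate 2 (-0.27, adjusted p = 0.0704). RPS27L, a copy of RPS27 known as a p53 target, was at 186.5 and 164.2 CPM in the shGlud1 libraries and at 373.9 and 401.1 CPM in the shNT libraries (-1.15). The muscle copy RPL3L had 2 to 4 expected counts in any library, the testis copy RPL10L had 0 in all libraries, and the row RPS10L, whose ID GENCODE 29 names as the pseudogene RPS10P5, had at most 2.61. Their parents RPL3, RPL10 and RPS10 (-1.36) all fell. Copies outside the symbol rule were mixed: RPL22L1 (-1.48), RPL26L1 (-1.34) and RPL36AL (-0.47) fell, and RPL7L1 was not called (0.28, adjusted p = 0.0538). RPL36AL was above 0 and not called under total counts (0.04, adjusted p = 0.789) and with the length trend removed (0.265, adjusted p = 0.0584), RPL26L1 was at -0.82 and -0.60 in these settings, and RPL7L1 was called higher under total counts (0.80).

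Reads shared between near-identical copies make some rows uncertain. For RPL41, the shortest member, the pseudogene row RPL41P1 carried about as many counts as the parent. RPL41P1 had 16599 and 14598 counts in the shGlud1 libraries and 24035 and 30886 in the shNT libraries, and RPL41 had 16317 and 14622 in shGlud1 and 24182 and 29631 in shNT cells. Over the family, 802 pseudogene rows held 1.41% to 1.56% of the members' own counts, and adding these counts to their parents changed no call. For RPL23A the part was larger, with 1608 and 1860 pseudogene counts in the shGlud1 libraries and 1235 and 1199 in the shNT libraries. Its own row held 9497 and 7961 counts in shGlud1 and 7339 and 9405 in shNT cells. Its log2 fold change was -0.49 without and -0.44 with the pseudogene counts. In all, 45 members had a fractional count in at least 1 library, the mark of reads divided between rows.

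Levels per coding length were compared among members, since the proteins are needed in like numbers. Median levels over 79 genes were 2070 and 1700 CPM per kb in the shGlud1 libraries and 4520 and 4590 CPM per kb in the shNT libraries. The spread among members was narrower after knockdown, with an SD of log2 level of 0.933 and 0.882 in the shGlud1 libraries and 1.154 and 1.127 in the shNT libraries. RPL41 was highest in all 4 libraries, but its coding length is 75 bases, so untranslated sequence makes up most of its mRNA and inflates this value. The order of members was largely shared between the groups (Spearman 0.944 across genes, which are not independent). RPL11 ranked 39 of 79 in shGlud1 and 61 in shNT cells and RPL7A 42 in shGlud1 and 62 in shNT cells, whereas RPL36A ranked 57 in shGlud1 and 38 in shNT cells and RPS29 40 in shGlud1 and 24 in shNT cells. These 4 were picked after their values were seen.

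Members with a high level in shNT cells tended to fall more, most clearly when the level was taken per coding length. To keep the level and the fold change from sharing a library, the level in shNT replicate 1 was set against the ratio of the shGlud1 mean to shNT replicate 2, which gave a Spearman correlation of -0.56 over 79 genes, and with the shNT libraries exchanged it was -0.61. By CPM without division by length the values were -0.32 and -0.44 over 80 genes. These are descriptions across genes, whose values share the same 4 libraries. The shNT libraries were also much alike (Spearman 0.99 over all genes tested). Exchanging them therefore does not separate a gene's shNT level from its fold change. Fold change had a Spearman correlation of 0.36 with coding length, with -0.16 for the longest and 0.23 for the median annotated transcript. Genes with over 600 coding bases had a median of -1.07 (n = 22), against -1.36 for those with up to 300 (n = 11), -1.40 for those above 300 and up to 450 (n = 27) and -1.34 for those above 450 and up to 600 (n = 19).

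**Figure D5:**
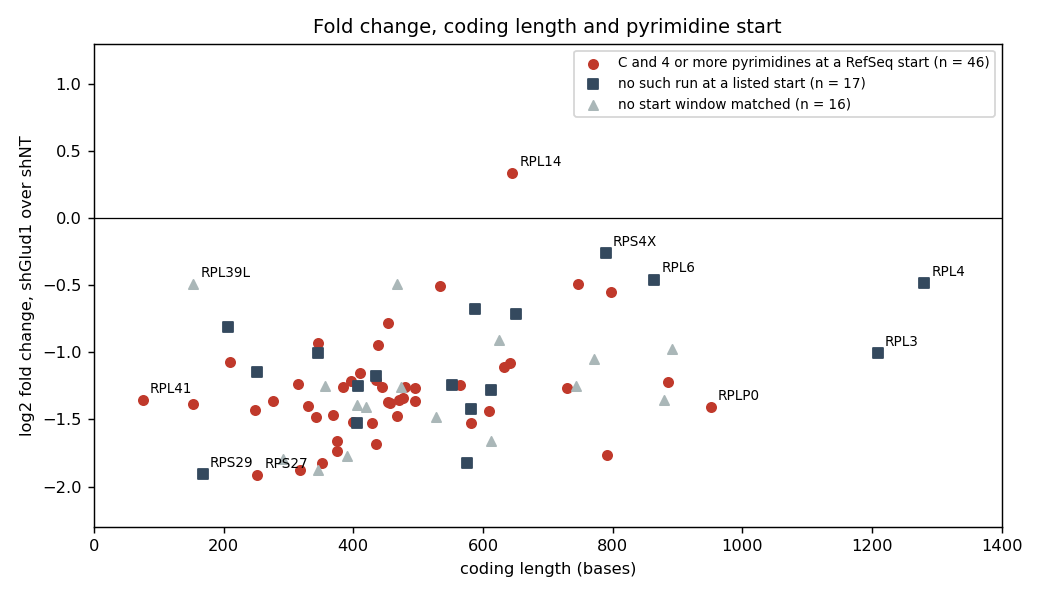
Log2 fold change (shGlud1 over shNT, TMM factors) of 79 ribosomal protein genes against coding length in bases, marked by whether a TOP run stands at a RefSeq start (46 genes), does not (17) or no window was matched (16). Genes with over 600 coding bases have a median of -1.07 and include RPL14, RPS4X, RPL4 and RPL6, and the marked groups overlap.

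Runs of the TOP kind were common at the annotated starts. A C followed by at least 4 pyrimidines began the transcript in 46 of 79 start windows of members (58.2%), against 4.07% of all 35116 windows in the table. Run lengths reached 19 bases, for RPL39. The 46 genes with a run had a median log2 fold change of -1.35 and a range from -1.92 to 0.34, and the 17 tested genes without one had a median of -1.15 and a range from -1.91 to -0.26. The ranges overlap almost completely. To count, a run had to begin with a C at the annotated base itself. RPL19 and RPS7 have pyrimidines that span the listed start, and RPL10A and RPS28 have a run that begins just after it. These were counted as genes without a run, so the split is not one of TOP genes against others. In the 300-base windows, on either strand, CCGGAAG, a core bound by ETS factors, occurred in 34.2% of member windows and 10.3% of all windows. TCTCGCGAG, an element of promoters without a TATA box, occurred in 8.86% and 0.686%, AAGATGG, a core bound by YY1, in 10.1% and 5.84%, and TATAAA in 7.59% and 11.5%. Overlaps between different motifs were not separated.

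Other genes with TOP mRNAs did not move as a block. Of 24 tested genes of translation factors and related TOP transcripts, 14 fell, 5 rose and 5 were not called, at a median of -0.46, and under total counts 9 fell and 10 rose at a median of 0.06. The shares of all genes were 29.1% lower and 31.9% higher with TMM factors, and 13.7% lower and 51.9% higher under total counts. Without shNT replicate 1 or without shNT replicate 2, 3 rose. The start run was present in 13 of the 16 genes matched to a window. FAU, which encodes a small subunit protein fused to a ubiquitin-like protein and lies outside the symbol rule, fell by 1.34. FAU was at 1017 and 694.0 CPM in the shGlud1 libraries and at 2206 and 2122 CPM in the shNT libraries. GAS5, a noncoding host of small nucleolar RNAs in the TOP list, has no run at its listed start and was at 112.3 and 104.9 CPM in shGlud1 and at 512.5 and 616.8 CPM in shNT cells (-2.38, SE 0.15, edgeR quasi-likelihood adjusted p = 9e-55). SNHG1 (-1.38), another such host without a run at its listed start, and the initiation factor gene EIF3E (-1.37) fell too. In the other direction, EIF2S3 (1.21), the poly(A)-binding protein gene PABPC1 (1.13) and EIF4B (0.82) rose. PABPC1 was at 299.4 and 321.3 CPM in the shGlud1 libraries and at 141.8 and 142.7 CPM in the shNT libraries. EEF1A1, an abundant elongation factor gene, was at 5537 and 6391 CPM in shGlud1 and at 4966 and 5106 CPM in shNT cells and was not called (0.24, adjusted p = 0.228), although under total counts it was called higher (0.77, adjusted p = 2.31e-07). The other elongation factor genes of the list were called lower, EEF1B2 (-1.22), EEF1D (-0.99), EEF1G (-0.95) and EEF2 (-0.39). Under total counts EEF1B2, EEF1D and EEF1G stayed lower and EEF2 was not called (0.13).

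Genes that act on TOP mRNAs were examined at the RNA level only. Of 14 tested, 3 fell, 6 rose and 5 were not called, at a median of 0.28, and under total counts 1 fell and 11 rose at a median of 0.81. Of all genes tested 29.1% fell and 31.9% rose with TMM factors, and 13.7% fell and 51.9% rose under total counts. EIF4EBP2 (1.46, adjusted p = 1.67e-13), MTOR (0.99, adjusted p = 8.11e-12) and LARP1 (0.88, adjusted p = 1.2e-10) rose in edgeR's quasi-likelihood test. LARP1 was at 99.95 and 105.9 CPM in the shGlud1 libraries and at 60.94 and 50.91 CPM in the shNT libraries, with no overlap. EIF4EBP1, which encodes the repressor of cap-dependent translation that mTORC1 inactivates, was at 234.0 and 196.5 CPM in shGlud1 and at 384.6 and 377.8 CPM in shNT cells (-0.82), and LARP1B (-0.74) and RPS6KB2 (-0.39) also fell. With the length trend removed EIF4EBP1 was not called (-0.20, adjusted p = 0.162, edgeR), and EIF4EBP2 (0.88), MTOR (0.36) and LARP1 (0.34) remained called at smaller values, while LARP1B was at -1.08 and RPS6KB2 at -0.81. Under total counts EIF4EBP1 was at -0.31 and still called, LARP1B (-0.22) and RPS6KB2 (0.12) were not called, and EIF4EBP2 (1.98), MTOR (1.51) and LARP1 (1.40) were higher. A further list held chaperones and escorts of single ribosomal proteins together with other factors such as NACA, BTF3, RIOK1 and RIOK2. Of its 13 tested genes 6 fell, 2 rose and 5 were not called, at a median of -0.32, and under total counts 1 fell and 5 rose at a median of 0.20, against the same shares of all genes. NACA and BTF3, which are among the falls, and NAP1L1 are also counted in the TOP list. GRWD1, an escort of RPL3 (-0.92, adjusted p = 1.87e-11, edgeR), PDCD2L (-0.78) and TSR2, an escort of RPS26 (-0.64), fell, and LTV1 (0.40) and NAP1L1 (0.33) rose. PDCD2L (-0.26 and -0.21) and TSR2 (-0.13 and -0.18) were not called under total counts or with the length trend removed, and NAP1L1 was called lower in that last setting (-0.36, adjusted p = 0.00767, edgeR).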

How the data were processed

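The authors deposited expected counts, the estimated and partly fractional number of reads of each gene (20.1% of values above 0 were not whole, at a tolerance of 0.001). Per the labels' protocols, polyA RNA from 1 µg of total RNA was made into libraries with TruSeq V2, a kit that does not mark strand, with 12 cycles of PCR and 150-base paired reads. The submitters' processing notes name Bowtie 0.12.2 and mm8, yet all 57820 IDs are human, so the build behind the counts is uncertain. For the counting program and its annotation, the sources used here give no name.

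Counts were rounded and tested for shGlud1 against shNT in edgeR 4.0.16 (R 4.3.3): filterByExpr with a minimum count of 10, TMM factors, the robust quasi-likelihood test, and Benjamini-Hochberg adjustment over 14616 genes at 0.05. The coefficient of variation between libraries of a group that edgeR estimated was 10.3%, which may be technical. The same test on simulated counts of these genes recovered 39.4% of genes changed 1.5-fold, 69.8% changed 2-fold and 98.4% changed 4-fold, and called 17 unchanged genes. CPM values are levels scaled by TMM factors unless total counts are named.

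Lengths and GRCh38 positions came from GENCODE 29, which matched 82 of 83 members, and coding length is that of the principal transcript. Alternatives used DESeq2 1.42.0, limma 3.58.1 (voom), other scalings and filters, a replicate block, each library left out, and lowess trends (span 0.3) on transcript length and GC. The trend on the median transcript was chosen after seeing the data. Tables and figures used Python 3.11.15, numpy 2.4.6, pandas 2.3.3, scipy 1.17.1 and matplotlib 3.10.9.

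The members, gene lists and tests were chosen with earlier results of these data known. Named members were the 5 lowest and 4 highest fold changes of each subunit, the 4 with the largest share of counts, the stalk P proteins, RPS27A, members not tested or not called lower, and copies ending in L with their parents. Of the gene lists, up to 3 that fell and 3 that rose by lowest p were named, with FAU and the other copies. A few genes are counted in the totals but not reported singly here. Members of the small lists by role in the ribosome, the elongation factor genes and the genes with large rank gaps were named beyond that rule, after their values were seen. The same holds for genes named as examples of a list's content or of a start class. Within pairs, counts differed by more than sampling noise (chi-square per degree of freedom 15 for shGlud1 and 5.81 for shNT), so each library counted as 1 replicate. PCR reads without molecular identifiers are not independent molecules.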

Additional observations from a re-analysis of the deposited data

How the results depend on the processing

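Over the 80 tested members, calls and directions held with upper-quartile factors, voom, no filter, the 1 CPM filter and added pseudogene counts, and DESeq2 differed only in calling RPS4X lower. With total counts the family median was -0.75 (large subunit -0.744, small subunit -0.851), 2 members were called higher, and the TOP list had 9 genes called lower and 10 higher. RPL11 (0.01), RPL23A (0.019), RPL39L (0.017), RPL4 (0.037), RPL6 (0.061), RPS6 (0.027) and RPS4X (0.255) then turned above 0. With the length trend removed the medians were -0.912, -0.912 and -0.914, 0 members were called higher, RPL14 turned to -0.23, and RPL39L (0.23), RPS4X (0.11), RPL7A (0.032) and RPS6 (0.024) turned above 0. With length and GC trends removed the medians were -1.055, -0.99 and -1.12, 0 members were called higher, RPL14 was at -0.47, and RPL39L (0.20), RPL10A (0.037) and RPLP2 (0.025) turned above 0. Under total counts 4 further members, and under each trend 7, lost their call in the same direction. For these 3 settings the cause was not tested. With the median-transcript trend, chosen after seeing the data, no member turned or lost its call. RLE factors gave 0 members called higher. Leaving out each library in turn gave 72 to 79 members called lower, 0 to 1 higher, medians from -1.489 to -1.132 (large subunit -1.477 to -1.129, small subunit -1.548 to -1.172), 3 to 6 TOP genes called higher and a share difference from -8.02 to -6.47 points. The lowest count of members, 72, came without shNT replicate 2, where 7 calls were lost, and 4 were lost without shNT replicate 1. In such fits the lone library is assumed to vary like the other group. With the 20 most counted other genes left out, the share difference was -8.18 points (large -4.59, small -3.59), and with counts divided by transcript length -6.05 (large -3.20). With the replicate number as a block, 78 members were called lower and 1 higher (median -1.27) and no member changed its call; same-numbered libraries deviated together only weakly (correlation 0.04, 2 pairs), so the numbers were not shown to pair the samples. At this depth every tested member had at least 1224 counts in every library.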
